A study of Mus musculus with 8 samples.

Results

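The genes described here are 10 markers of endoplasmic reticulum (ER) stress and of the Atf4 response: Hspa5, Ddit3, Atf4, Xbp1, Herpud1, Dnajb9, Trib3, Asns, Chac1 and Sesn2. They were taken by symbol from the probe annotation of the array. All 10 were present, each with 1 probe set, among 19938 genes measured. RNA came from cultured primary myoblasts, the proliferating progeny of muscle satellite cells, isolated from gastrocnemius muscles of C57bl/6 mice aged 2 to 3 weeks. The series set myoblasts of Runx1f/f mice against WT myoblasts to find genes that depend on the transcription factor Runx1. The 4 arrays labelled Runx1f/f and the 4 labelled WT are each numbered 1 to 4 as biological replicates. Runx1f/f names a floxed allele, and the labels also speak of knockout cells. Neither a Cre driver, nor the deleted part of Runx1, nor the number of animals behind a culture is named in the labels.

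When unfolded proteins build up in the ER, 3 membrane sensors signal to the nucleus. Ern1 (IRE1) splices the Xbp1 mRNA, Atf6 is cut to release a transcription factor, and Eif2ak3 (PERK) phosphorylates the translation factor eIF2alpha. Phosphorylated eIF2alpha slows protein synthesis while it favours translation of Atf4, and the kinase Eif2ak4 (GCN2) feeds into the same step when amino acids are short. Atf4 then activates genes of amino acid supply, redox balance and, with Ddit3 (CHOP), cell death. In mouse myoblasts Ddit3 has been described as a repressor of Myod1 transcription. Arrays measure mRNA, so neither the splicing of Xbp1 nor the translation of Atf4 is visible in these values.

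Values are log2 intensities after RMA, and a difference of 1 on this scale is a factor of 2. Over all 35399 deposited rows, 3 sets of columns share 1 mean to within 7.5e-05: the WT columns together, Runx1f/f 1 with 2, and Runx1f/f 3 with 4. The labelled genotypes are therefore equal by construction of the table. Within Runx1f/f, array 2 is the mirror image of array 1 around the gene mean, and array 3 of array 4. Array medians ran from 4.39 to 4.41. Runx1, the targeted gene, read 9.35, 9.98, 9.89 and 9.44 in Runx1f/f 1 to 4 and 9.15, 9.99, 10.27 and 9.25 in WT 1 to 4. It thus did not separate the labels, and it was higher in numbers 2 and 3 than in numbers 1 and 4 under both. Arrays 2 and 3 stand apart from arrays 1 and 4 across the whole table. What they share is not stated in the labels as attached. A limit holds for every value given by label or number, because these files do not allow a check that each column stands under its own sample. If the columns were matched to samples by rising source number and not by their headers, the 4 columns numbered 2 and 3 would be Runx1f/f and the 4 numbered 1 and 4 WT, and the sets with equal means would be the runs of source numbers 139 to 142, 160 to 161, and 181 with 189. The split described here would then be the split by genotype, and Runx1 would read higher in Runx1f/f than in WT, by 0.74. The headers are followed throughout, and which match is right was not tested. The split was noticed in the values themselves, so its differences are given as descriptions without a test.

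The 7 myoblast and myocyte markers read above the array medians on all 8 arrays, at levels that varied widely. Myod1 read 11.12 to 11.57 and Des, which encodes the muscle intermediate filament desmin, 11.13 to 11.47. Myog read 10.74 to 11.94, Cdh15 9.90 to 10.38 and Ckm 8.37 to 9.84. Lower levels were those of Myf5, 7.54 to 8.71, and Pax7, 6.83 to 7.19. Of the leukocyte markers Ptprc, Adgre1, C1qa and Cd3e read at most 3.68, and Cd68, which other cells also express, 4.32 to 4.78. The 5 endothelial markers read at most 3.76. Of the fibroblast and fibro-adipogenic markers, Pdgfra, Dcn and Lum read at most 3.63, Col1a1 reached 4.82 and Col3a1 read 8.60 to 9.21.

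Between the labelled genotypes 0 of the 10 genes were called higher or lower, by the construction described above (limma, Benjamini-Hochberg adjusted p under 0.05, all 10 adjusted p = 1). Over all genes 0% were called, and 0 had an unadjusted p under 0.05. Hspa5 averaged 11.68 ± 0.04 in Runx1f/f and 11.68 ± 0.12 in WT arrays (SD, n = 4 each), and Chac1 5.76 ± 0.42 in Runx1f/f and 5.76 ± 0.56 in WT arrays. Because the Runx1f/f arrays are mirrored in pairs, their SD does not rest on 4 independent values and is not a like measure to that of WT. The largest difference among the 10 genes was 5e-06. With the labels as attached, the values therefore give no measure of an effect of Runx1 loss on these genes, present or absent.

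Between array numbers 4 of the 10 genes parted without overlap. Chac1, Trib3, Sesn2 and Asns, all of the amino acid and Atf4 response, were lower in numbers 2 and 3 than in numbers 1 and 4 on every array. Herpud1 differed by -0.35, Atf4 by -0.13 and Dnajb9 by -0.10, each with overlapping values. The ER chaperone Hspa5 and the transcription factors Xbp1 and Ddit3 differed by at most 0.03 on average. In all, 4 of the 10 genes had their 4 values from numbers 2 and 3 below all 4 from numbers 1 and 4, against 10.5% of all genes, and 0 had them above, against 9.87% of all genes. Of the 10 genes 9 had a mean of at least 5. Over the 8949 genes of the whole table that did, the shares were 16.9% below and 14.6% above. The member that did not was Trib3, with a mean of 4.22, so the count of 4 takes in a gene outside that filter. The median difference was -0.20 for the 10 genes and -0.01 over all genes. Without regard to the split, the range over the 8 arrays had a median of 0.47 for the 10 genes and 0.25 over all genes.

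**Figure D1:**
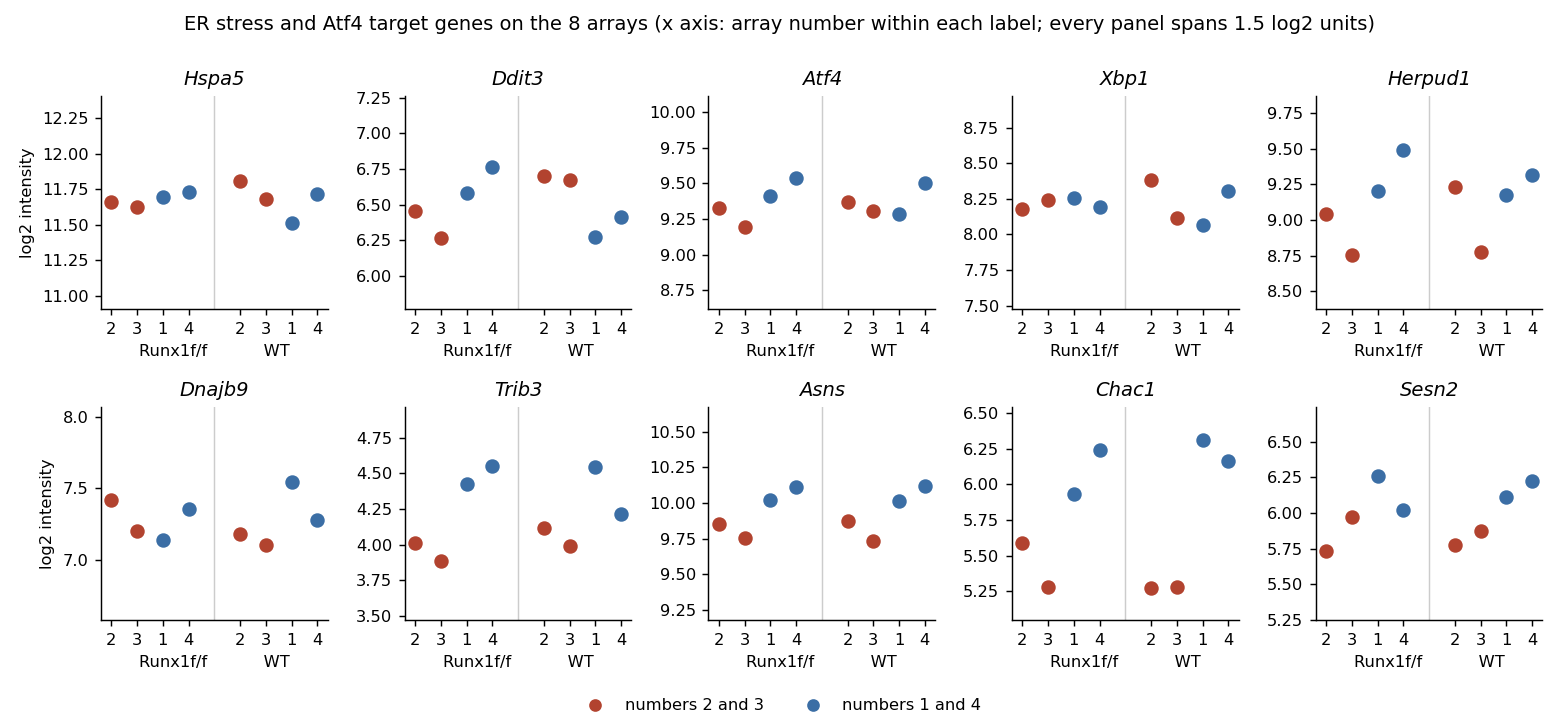
Log2 intensity of each of the 10 genes (y axis, every panel spanning 1.5 log2 units) on the 4 Runx1f/f and the 4 WT arrays (x axis, array numbers 2, 3, 1 and 4). Red points are numbers 2 and 3, and blue points are numbers 1 and 4; in Trib3, Asns, Chac1 and Sesn2 all 4 red points lie below all 4 blue points, while Ddit3 turns round between the labels.

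Chac1, a glutathione-degrading enzyme induced through Atf4, showed the widest difference of the 10. It read 5.59 and 5.28 in Runx1f/f 2 and 3 and 5.27 and 5.28 in WT 2 and 3, against 5.93 and 6.24 in Runx1f/f 1 and 4 and 6.32 and 6.17 in WT 1 and 4. The sets did not overlap. Their means were 5.36 ± 0.15 and 6.16 ± 0.17 (SD, n = 4 arrays each), a difference of -0.81, or 1.75-fold lower in numbers 2 and 3. Chac1 was the 1 gene of the 10 past 1.5-fold (0.585 on the log2 scale), a size that 0.838% of all genes reached in the lower and 2.32% in the higher direction. By size of the difference it ranked 334 among 19938 genes.

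Trib3 encodes a pseudokinase that Atf4 and Ddit3 induce and that in turn restrains Atf4. It read 4.01 and 3.88 in Runx1f/f 2 and 3 and 4.12 and 3.99 in WT 2 and 3, against 4.43 and 4.55 in Runx1f/f 1 and 4 and 4.55 and 4.21 in WT 1 and 4. The closest pair across the sets was 4.12 in WT 2 and 4.21 in WT 4, so the sets did not overlap. The difference was -0.43 (4.00 ± 0.10 in numbers 2 and 3, 4.43 ± 0.16 in numbers 1 and 4). Trib3 is dim on these arrays, with values on both sides of the array medians, and no detection calls were used here, so how much of its signal is background was not tested.

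Sesn2 encodes a leucine-sensing stress protein that inhibits mTORC1 and is also a target of p53. Its values were 5.73 and 5.97 in Runx1f/f 2 and 3 and 5.77 and 5.87 in WT 2 and 3, against 6.26 and 6.02 in Runx1f/f 1 and 4 and 6.11 and 6.23 in WT 1 and 4. The sets were close but did not overlap, with 5.97 in Runx1f/f 3 below 6.02 in Runx1f/f 4. The difference was -0.32, from means of 5.84 ± 0.11 in numbers 2 and 3 and 6.15 ± 0.11 in numbers 1 and 4. Asns, asparagine synthetase, had the tightest sets of the 10. It read 9.85 and 9.76 in Runx1f/f 2 and 3 and 9.87 and 9.73 in WT 2 and 3, against 10.02 and 10.11 in Runx1f/f 1 and 4 and 10.02 and 10.12 in WT 1 and 4. Its difference was -0.26 in Runx1f/f and -0.26 in WT, and the SD within a set was 0.07 for numbers 2 and 3 and 0.06 for numbers 1 and 4.

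Herpud1, an ER membrane protein of ER-associated degradation, was lower in numbers 2 and 3 by a mean of -0.35, but its sets overlapped. It read 9.04 and 8.76 in Runx1f/f 2 and 3 and 9.24 and 8.77 in WT 2 and 3, against 9.21 and 9.49 in Runx1f/f 1 and 4 and 9.17 and 9.31 in WT 1 and 4. Most of that difference lay between numbers 3 and 4, at -0.74 in Runx1f/f and -0.54 in WT. Between numbers 2 and 1 it was -0.16 in Runx1f/f and 0.06 in WT.

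Of the transcription factors, Atf4 itself differed by -0.13. Its values were 9.32 and 9.20 in Runx1f/f 2 and 3 and 9.37 and 9.31 in WT 2 and 3, against 9.41 and 9.54 in Runx1f/f 1 and 4 and 9.29 and 9.50 in WT 1 and 4. WT 1 lay among numbers 2 and 3, so the sets overlapped. Ddit3, the pro-apoptotic partner of Atf4, went opposite ways under the 2 labels. It read 6.45 and 6.27 in Runx1f/f 2 and 3, against 6.58 and 6.76 in Runx1f/f 1 and 4. In WT it read 6.70 and 6.67 in numbers 2 and 3, against 6.28 and 6.41 in numbers 1 and 4. Its difference was -0.31 in Runx1f/f and 0.35 in WT, which cancel to 0.02 over all arrays. Sets parted in opposite directions under the labels in 1 of the 10 genes and in 8.31% of all genes. Xbp1, the transcription factor downstream of IRE1, read 8.18 and 8.24 in Runx1f/f 2 and 3 and 8.39 and 8.12 in WT 2 and 3, against 8.25 and 8.20 in Runx1f/f 1 and 4 and 8.06 and 8.30 in WT 1 and 4. Its sets overlapped and differed by 0.03.

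Among the marker genes, the ER chaperone Hspa5 and the co-chaperone Dnajb9 gave no common direction. Hspa5 (BiP), the main HSP70 chaperone of the ER lumen and a standard readout of ER stress, read 11.66 and 11.62 in Runx1f/f 2 and 3 and 11.80 and 11.68 in WT 2 and 3, against 11.69 and 11.73 in Runx1f/f 1 and 4 and 11.51 and 11.71 in WT 1 and 4. Its difference of 0.03 was smaller than the SD within either set, 0.08 for numbers 2 and 3 and 0.10 for numbers 1 and 4. Dnajb9 (ERdj4), a BiP co-chaperone, read 7.42 and 7.20 in Runx1f/f 2 and 3 and 7.18 and 7.10 in WT 2 and 3, against 7.14 and 7.35 in Runx1f/f 1 and 4 and 7.54 and 7.28 in WT 1 and 4. Its difference was -0.10 over all arrays, 0.06 in Runx1f/f and -0.27 in WT.

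**Figure D2:**
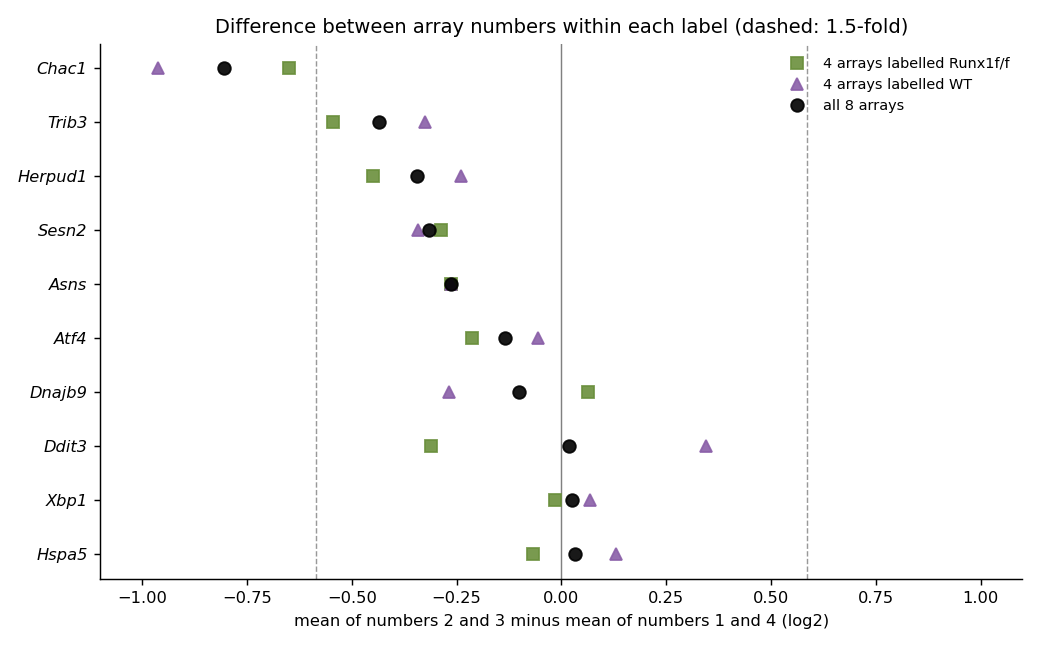
Mean of numbers 2 and 3 minus mean of numbers 1 and 4 (x axis, log2) for each of the 10 genes (y axis), in the Runx1f/f arrays (green squares), the WT arrays (purple triangles) and all 8 arrays (black circles), with dashed lines at 1.5-fold. For Chac1, Trib3, Herpud1, Sesn2, Asns and Atf4 all 3 points lie below 0; for Ddit3 the labels lie at -0.31 and 0.35.

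The sign was the same and negative under both labels in 6 of the 10 genes, against 30.8% of all genes, and the same and positive in 0, against 27.5% of all genes. The source numbers of the samples fall into runs whose meaning is not given, and 1 of them, 139 to 142, holds numbers 1 and 2 of both labels. Within it the difference was -0.69 for Chac1, -0.43 for Sesn2, -0.42 for Trib3 and -0.16 for Asns. Herpud1 differed there by -0.05, Dnajb9 by -0.04 and Atf4 by -0.00056. Ddit3, Hspa5 and Xbp1 were higher in number 2 there, by 0.15, 0.13 and 0.12. Numbers 3 and 4 lie in different runs, so there array number and run cannot be told apart.

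**Figure D3:**
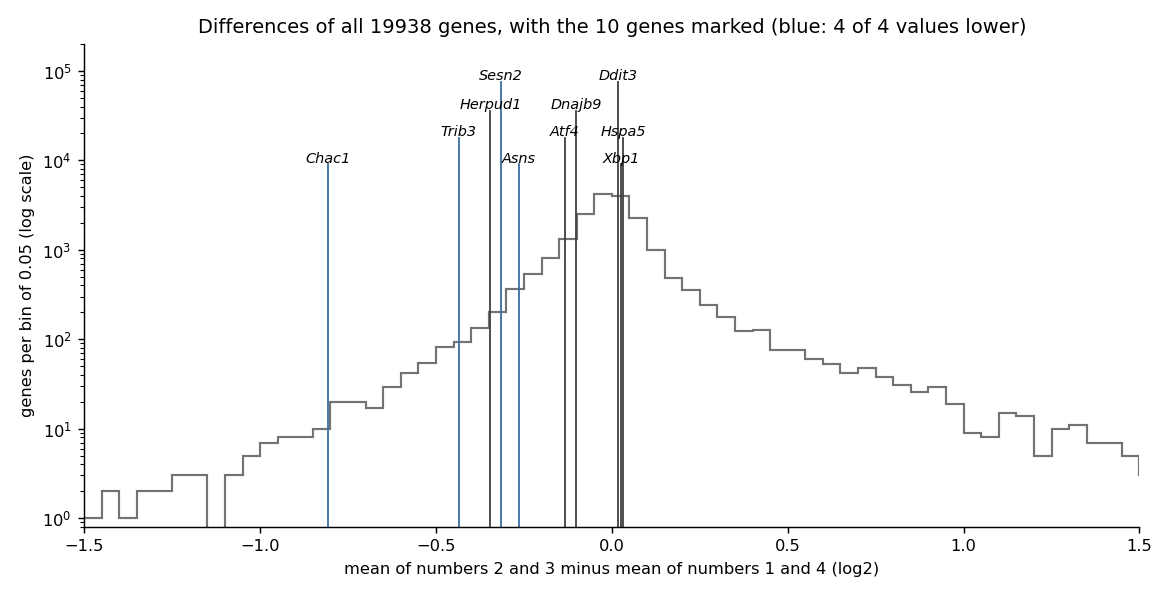
Number of genes per bin of 0.05 (y axis, log scale) by mean of numbers 2 and 3 minus mean of numbers 1 and 4 (x axis, log2, shown from -1.5 to 1.5; some genes lie beyond) for all 19938 genes, with lines at the 10 genes. Chac1 lies at -0.81 in the sparse lower tail, while Hspa5, Xbp1 and Ddit3 lie near the centre between 0.02 and 0.03.

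Promoter sequence was read for the members from the RefSeq promoter table (GRCm38.p6), in which all 10 matched. The 250 bases before the annotated start were searched on both strands for 4 motifs. The ATF4 composite element TGATGNAA, at which Atf4 binds with a C/EBP partner, was found in Chac1, Asns and Herpud1, and in 3.45% of the 32851 promoters of the table. The ER stress element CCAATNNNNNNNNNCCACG, bound by NF-Y with Atf6, was found in Hspa5 and in 0.113% of all promoters. Its second form ATTGGNCCACG was found in Herpud1 and in 0.0304% of all promoters. The cyclic AMP response element core TGACGT was found in Hspa5 and in 6.47% of all promoters. The other 6 promoters held none of these letters in this window. The 4 promoters with a match are shown because they set the Atf4-type element of Chac1 and Asns beside the ER stress elements of Hspa5 and Herpud1. Each runs 5′ to 3′ on the gene's strand, with matches in capitals: Chac1 at chr2:119350992-119351241 (plus strand), Asns at chr6:7693210-7693459 (minus strand), Herpud1 at chr8:94386179-94386428 (plus strand) and Hspa5 at chr2:34771840-34772089 (plus strand).
Chac1: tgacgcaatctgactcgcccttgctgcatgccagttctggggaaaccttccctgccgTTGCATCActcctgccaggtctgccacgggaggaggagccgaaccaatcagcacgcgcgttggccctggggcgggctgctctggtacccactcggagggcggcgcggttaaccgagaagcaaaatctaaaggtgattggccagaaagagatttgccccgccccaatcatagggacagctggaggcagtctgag
Asns: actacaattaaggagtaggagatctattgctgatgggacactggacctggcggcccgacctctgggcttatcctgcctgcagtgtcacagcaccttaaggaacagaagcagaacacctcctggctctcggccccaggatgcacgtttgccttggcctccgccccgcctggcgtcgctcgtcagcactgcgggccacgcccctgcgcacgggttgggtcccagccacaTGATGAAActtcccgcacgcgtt
Herpud1: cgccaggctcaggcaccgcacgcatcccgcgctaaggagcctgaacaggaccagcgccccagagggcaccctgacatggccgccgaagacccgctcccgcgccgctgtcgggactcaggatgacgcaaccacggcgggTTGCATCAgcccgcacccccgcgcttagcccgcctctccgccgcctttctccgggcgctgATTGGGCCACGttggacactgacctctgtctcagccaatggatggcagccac
Hspa5: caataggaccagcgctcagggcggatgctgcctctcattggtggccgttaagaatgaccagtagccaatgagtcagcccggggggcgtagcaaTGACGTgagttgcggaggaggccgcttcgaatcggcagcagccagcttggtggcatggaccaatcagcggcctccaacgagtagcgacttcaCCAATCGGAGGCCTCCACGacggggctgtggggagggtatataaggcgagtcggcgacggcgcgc
The Chac1 and Herpud1 matches to the composite element are on the opposite strand, at bases -193 to -186 and -112 to -105 from the start, and the Asns match is at -23 to -16. The ER stress element of Hspa5 lies at -65 to -47 and its cyclic AMP response element core at -157 to -152. The second-form element of Herpud1 lies at -52 to -42. No 2 matches overlap. A match is a description of the sequence only. Chac1 and Asns, with the composite element alone, belong to the 4 genes with sets that did not overlap, and Herpud1 and Hspa5 to those that did. Trib3 and Sesn2 had sets that did not overlap and no match in this window.

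The wider pathway was followed in 8 lists with 98 genes, of which 93 were measured. Of these, 27 (29%) had numbers 2 and 3 wholly below numbers 1 and 4 and 6 (6.45%) wholly above, against 10.5% and 9.87% of all genes. Of the 93, 81 had a mean of at least 5, and over the 8949 genes of the whole table that did the shares were 16.9% below and 14.6% above. The counts of 27 and 6 both take in genes below that mean, and the 81 were not counted separately. Past 1.5-fold, 3 were lower and 2 higher, against 0.838% and 2.32% of all genes, and the median difference of the 93 was -0.08. The shares of 10.5% wholly below and 9.87% wholly above also stand beside the counts per list that follow.

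Of the sensors, 2 of 5 were wholly lower and 0 wholly higher. Ern1 read 5.36 and 5.26 in Runx1f/f 2 and 3 and 5.11 and 4.94 in WT 2 and 3, against 5.56 and 5.65 in Runx1f/f 1 and 4 and 5.86 and 5.93 in WT 1 and 4, a difference of -0.58. Eif2ak3 differed by -0.25, and Atf6 by -0.16 with overlapping sets. Among the eIF2alpha kinases and phosphatase subunits 3 of 6 were wholly lower and 1 higher. The phosphatase subunits Ppp1r15a (GADD34), itself an Atf4 target, and Ppp1r15b (CReP) differed by -0.24 and -0.18. The double-stranded RNA kinase Eif2ak2 (PKR) was higher by 0.18.

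Amino acid supply included Slc7a1, with the widest difference of the 93 genes. Of 9 transporters, 3 were wholly lower and 0 higher, with a list median of -0.22. Slc7a1, the cationic amino acid transporter CAT1, read 6.17 and 6.18 in Runx1f/f 2 and 3 and 5.92 and 5.73 in WT 2 and 3, against 7.11 and 7.10 in Runx1f/f 1 and 4 and 7.74 and 7.18 in WT 1 and 4. Its difference of -1.29 exceeded that of any of the 10 genes. Slc1a5, the glutamine transporter ASCT2, differed by -0.37 and the glycine transporter Slc6a9 by 0.77, both with overlapping sets. For Slc6a9 the high reading was 6.52 in WT 3, while the other arrays read 4.50 to 5.61. Of 11 synthesis enzymes 1 was wholly lower, Mthfd2 of mitochondrial one-carbon metabolism, at -0.51. The cystathionine lyase Cth differed by -0.60 and the alanine transaminase Gpt2 by 0.64 with overlapping sets, Gpt2 by 1.23 in WT and 0.06 in Runx1f/f. Of 12 genes for tRNA synthetases and tRNA export 4 were wholly lower and 0 higher. The widest differences there were those of Gars (-0.17), Iars (-0.17) and Mars1 (-0.16).

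In the ER itself, of 17 chaperones and folding enzymes 6 were wholly lower and 0 higher, with a median of -0.07. The prolyl isomerases Fkbp14 and Fkbp11 differed by -0.52 and -0.35, and Sdf2l1, a BiP cofactor, by -0.23 with overlapping sets. Of 16 degradation and XBP1 target genes 5 were wholly lower and 2 higher, with a median of -0.01. Wfs1, the ER membrane protein wolframin, read 7.36 and 7.53 in Runx1f/f 2 and 3 and 7.55 and 7.44 in WT 2 and 3, against 8.47 and 8.30 in Runx1f/f 1 and 4 and 8.53 and 8.13 in WT 1 and 4, a difference of -0.89. Edem2 differed by -0.24 and the COPII coat gene Sec24d by 0.20. Among 17 Atf4-linked regulators 3 were wholly lower and 3 higher. The 3 with the widest differences were all higher in numbers 2 and 3: the pro-apoptotic Bcl2l11 (BIM) by 0.55, the Trib3 relative Trib2 by 0.52 and the Sesn2 relative Sesn1 by 0.38. Trib2 and Sesn1 thus went opposite to their paralogues Trib3 and Sesn2. The paralogue Sesn3 was wholly lower, as Sesn2 was, at -0.26, and Trib1 differed by 0.13 with overlapping sets. Like Trib3, Trib2 is dim, at 3.70 to 4.94, and how much of its signal is background was not tested.

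**Figure D4:**
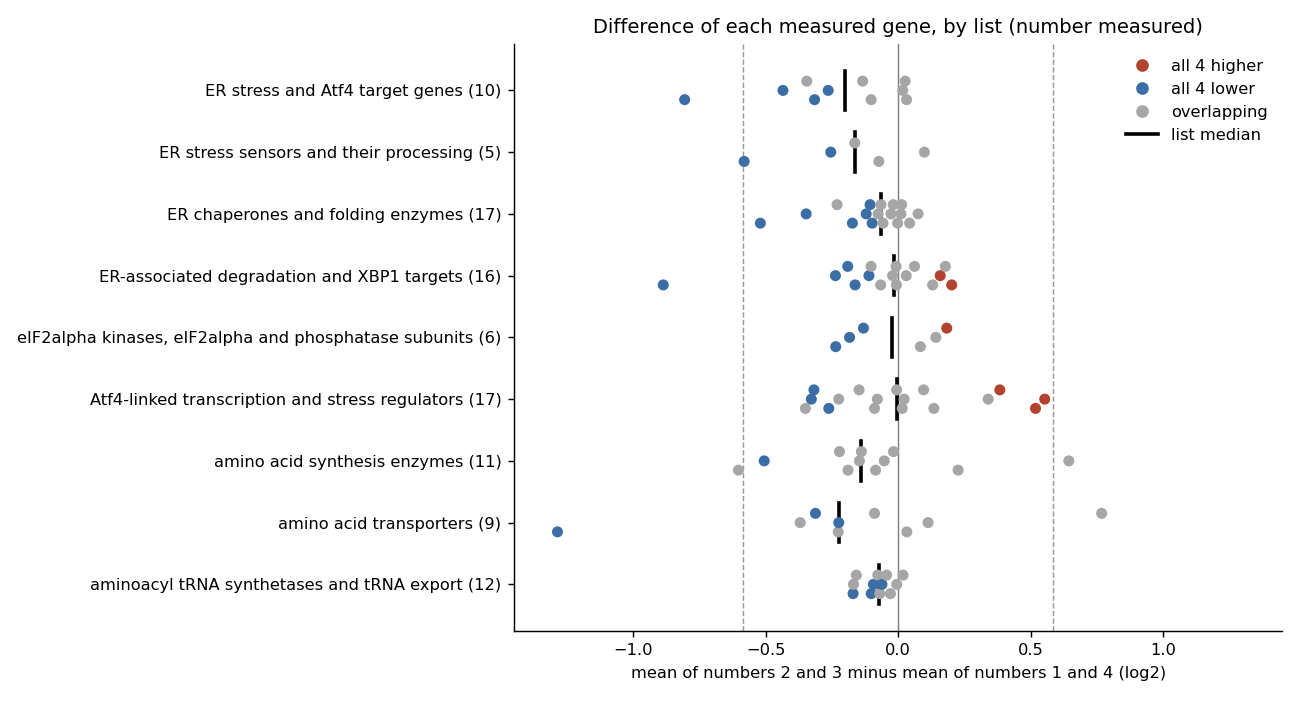
Mean of numbers 2 and 3 minus mean of numbers 1 and 4 (x axis, log2) of every measured gene, by list (y axis, number measured in brackets). Blue points have all 4 values of numbers 2 and 3 below those of numbers 1 and 4, red points above, grey points overlap, black bars are list medians and dashed lines mark 1.5-fold; Slc7a1 lies at -1.29, Wfs1 at -0.89 and Chac1 at -0.81.

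Muscle markers moved with the same split. Of 7 myoblast and myocyte markers 4 were wholly higher in numbers 2 and 3 and 2 wholly lower, and the mean level of the list ran from 9.80 to 9.88 in numbers 2 and 3 and from 9.67 to 9.75 in numbers 1 and 4. Myog, which drives differentiation, differed by 0.76 and the muscle creatine kinase Ckm by 0.99, whereas Myf5 differed by -0.89. Of 5 fibroblast and 5 leukocyte markers 0 parted the sets, and of 5 endothelial markers 1 was wholly higher and 2 wholly lower. Over all genes 9.87% were wholly higher and 10.5% wholly lower. These endothelial genes read below the array medians, the lowest of which was 4.39. Kdr differed by 0.06, Pecam1 by -0.19 and Tek by -0.14, and how much of their signal is background was not tested. The part of differentiation state or cell mixture in the differences of the ER stress genes was not tested. In such bulk samples fewer cells of a type and less RNA per cell cannot be told apart.

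The genes with profiles most like each member were sought for the 4 members with a range of at least 0.5, as the smallest root mean square difference over the 8 arrays after centring each gene on its mean. For Chac1 these were Ece1, Lrp4 and Cnnm4, each 0.08 away, while Chac1 itself varied by 0.43 around its mean on the same measure. For Trib3 they were Plekhb2, Ubash3b and Dvl1 at 0.05 to 0.06, for Sesn2 Slc35e1, Dcbld1 and Mfsd10 at 0.02 to 0.03, and for Herpud1 Arhgap24, Fitm2 and Gdf5 at 0.05 to 0.08. In each case the nearest profiles were lower in numbers 2 and 3, by -0.23 (Gdf5) to -0.78 (Cnnm4 and Lrp4). That direction follows from choosing them for likeness to members that were themselves lower there. No member was among the 3 nearest of another. With 19938 candidates and 8 arrays that form 2 clusters, such likeness is a description.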

How the data were processed

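RNA of 8 myoblast cultures was measured on Affymetrix MoGene 1.0 ST arrays from 200 ng of total RNA each. The deposited values are log2 intensities per probe set and array. The submitters' processing notes name RMA and Partek, without versions. No label or header records a step that would make column means equal. Columns were assigned by the accession in their header, and whether each stands under its own sample could not be checked; another match is described in the results. Of 23410 annotated rows 21789 had 1 gene symbol, and the probe set with the highest mean stood for a gene; older list symbols were matched through RefSeq gene IDs.

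Genotypes were fitted with limma 3.58.1 in R 4.3.3 (lmFit, eBayes, two-sided, all genes), tested on simulated data. The simulated columns were independent, without the equal means and mirrored arrays of the deposited values, so that test does not bear on detection here. Array numbers were compared by differences of means, a fold of 1.5 and overlap of values (Python 3.11.15). Same-numbered arrays, taken relative to the mean of their label, correlated by 0.39 (number 1), 0.46 (number 2), 0.60 (number 3) and 0.57 (number 4), and an alternative fit took the numbers as pairs. Other numbers correlated as highly, Runx1f/f 1 with WT 4 by 0.64 and Runx1f/f 2 with WT 3 by 0.56, so the values do not establish a pairing. Alternatives were scalings, a dim filter, probe set means, blocks, thresholds, single labels, 1 source number run and each array left out. The members, lists and the split were chosen with earlier results of these data known. Genes named beside the 10 are, per list, the 3 with the widest differences and, per member with a range of at least 0.5, the 3 nearest profiles. Sesn3 and Trib1 are named in addition, as further relatives of Sesn2 and Trib3. The number of arrays limits the precision.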

Additional observations from a re-analysis of the deposited data

Results flagged for a closer look

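Ddit3 was flagged by a fixed rule, because the arrays of the 2 labels moved in opposite directions. The mean of numbers 2 and 3 minus that of numbers 1 and 4 was -0.31 in Runx1f/f and 0.35 in WT, and in each label the 2 sets did not overlap. The difference between the labels was not tested. Over all genes, 8.31% showed sets that did not overlap within each label and lay in opposite directions. With 1 such gene among the 10, the members are close to that share. An outlying array within a label was looked for in 36 groups of 4 values, the 10 genes and the 8 list medians under each label, and 0 were found. For single genes in Runx1f/f the mirrored arrays make the values symmetric, so none can be found there.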

How the results depend on the processing

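The count of 0 genes and 0 members called between the labelled genotypes was also 0 with the replicate block, where the replicate number pairs the arrays, and under each other alternative run; with columns kept whole and unscaled the equal means fix it, and with 1 array left out it reflects that array. The block was run for these counts alone. The members wholly lower in numbers 2 and 3 numbered 4 after centring the arrays, against 11.1% of all genes. After repeated quantile normalization they numbered 4, against 11.5%. Probe set means cannot move this count, since each member has 1 probe set. With 1 array left out the members wholly lower numbered 4 to 5, against 11.7% to 14.2% of all genes. Within the Runx1f/f arrays alone 8 members were wholly lower, against 33.3% of all genes. Within the WT arrays alone 5 were lower and 1 higher, against 23.3% and 24.5% of all genes. Sets of 2 arrays against 2 part more easily by construction. In Runx1f/f, where the arrays are mirrored, they part whenever 2 minus 1 and 3 minus 4 share a sign. In WT alone 377 genes of all were at least 1.5-fold lower, against 167 in the 8 arrays. At the lower fold threshold tried the counts were 3 members lower, 1004 genes higher and 663 lower. At a fold of 2 they were 0 members lower, 163 genes higher and 36 lower. Over the 14 alternative settings that give each member a difference, the sign held in 14 for Chac1 (-0.96 to -0.65), Trib3 (-0.54 to -0.33), Sesn2 (-0.43 to -0.28), Asns (-0.29 to -0.16), Herpud1 (-0.45 to -0.05) and Atf4 (-0.21 to -0.00056). It held in 13 for Dnajb9, 11 for Hspa5, 11 for Xbp1 and 8 for Ddit3. These 14 settings are not all separate checks. Probe set means repeat the main values of the members. By the mirroring, leaving out Runx1f/f 1 or 2 gives the same differences, and so does leaving out 3 or 4. The share of genes wholly lower among brighter genes, 16.9%, was computed after seeing the data. Detection values were not analysed here, so the limit set by background signal is not known.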
